A study of Mus musculus with 18 samples.

Results

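The genes described here encode the enzymes and cofactors that write and erase N6-methyladenosine (m6A) on RNA: *Mettl3*, *Mettl14*, *Wtap*, *Virma*, *Zc3h13*, *Cbll1*, *Rbm15* and *Rbm15b* as writers, and *Alkbh5* and *Fto* as erasers. Chromatin immunoprecipitation sequencing (ChIP-seq) of mouse ventricles gave their occupancy by RNA polymerase II (Pol II) and by CTCF, a DNA-binding protein of insulators and domain borders, with IgG as the control antibody. A peak counted as theirs when the table gave it the gene's symbol, or when it carried no annotation and lay inside the gene. These were 23 of 101256 peaks, of which 14 were annotated to a gene start and 9 were unannotated peaks inside a gene. They belonged to 9 of the 10 genes, as no peak carried the symbol *Fto*.

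The hearts were from mice labelled WT, trdn-as KO and Mettl3lox/lox:alphaMHC-MerCreMerpos, called WT, *Trdn-as* KO and *Mettl3* KO here. In *Mettl3* KO hearts, a tamoxifen-dependent Cre under the alphaMHC promoter deletes the floxed gene in cardiomyocytes only, so all other cells of the ventricle keep it. Mice of the *Mettl3* line received tamoxifen on 7 consecutive days at an age of 10 to 16 weeks, and those of the ChIP-seq were adult, with no age given. *Trdn-as* KO mice carry a polyA site in the first exon of the antisense RNA *Trdn-as* and were bred from embryonic stem cells and backcrossed to C57BL/6. Floxed mice without the Cre got the same injections, but the label WT names neither floxed alleles nor tamoxifen, so effects of the Cre, of tamoxifen and of the lost gene cannot be told apart. Chromatin came from 2 hearts, the sources do not say whether replicate libraries came from separate preparations, and p-values may then measure technical spread only. There were 2 libraries per genotype for Pol II, 2 for CTCF and 1 for IgG. Fewer cells of a type and less signal per cell cannot be told apart in whole ventricles.

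m6A is the most frequent internal modification of messenger RNA and is set during transcription. METTL3 is the catalytic subunit of the methyltransferase and METTL14 its partner, which has no catalytic activity of its own and helps to bind the RNA. WTAP, VIRMA, ZC3H13 and CBLL1, also called HAKAI, form the regulatory complex that holds the enzyme in nuclear speckles and guides it, and the paralogs RBM15 and RBM15B bind RNA and bring the complex to its sites. ALKBH5 and FTO are oxygenases that remove the methyl group. In cardiomyocytes the balance of methylation is known to influence growth and stress responses of the heart.

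The libraries differed in how much of their sequence fell in peaks. The 6 Pol II libraries held between 1991582 and 4950359 reads in peaks. The share of uniquely mapped reads in peaks was 18.6% in *Trdn-as* KO replicate 2 and between 35.6% and 42.5% in the other Pol II libraries, so the comparisons of the promoter peaks are also given without it. The share was 32.1% to 39.2% for CTCF and 4.90% to 5.70% for IgG. At the *Trdn-as* promoter, Pol II values were 530 and 595 in WT against 503 and 491 in *Mettl3* KO, while *Trdn-as* KO had 140 and 100. The 6 peaks of the Y chromosome had summed Pol II values of 279 and 326 in WT against 223 and 239 in *Mettl3* KO, while *Trdn-as* KO had 0 in either library. Sex and genotype therefore cannot be told apart between *Trdn-as* KO and the other hearts. The sums of *Mettl3* KO were below those of WT for CTCF too (51 and 50 against 79 and 80) and for IgG (59 against 84). Whether WT and *Mettl3* KO hearts were matched for sex was not tested. No value checks the *Mettl3* KO label at the deleted stretch, because the sources used here do not say which part of *Mettl3* lies between the lox sites.

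Each of the 9 genes had a promoter peak, taken as the promoter peak of that gene with the highest mean Pol II value. Promoter sequences were available for 8 of the 10 genes in RefSeq, in GRCm38.p6, and not in the build of the peaks, GRCm39. They span 250 bases before and 50 after the start. Taking 1 start per gene, their GC content was between 52.0% and 75.3% and lay above the median of all 32851 promoters, 52.7%, for 7 of the 8 genes. They held 17 to 46 CpG dinucleotides, against a median of 7. The sequences of *Mettl3*, the deleted gene, of the eraser *Alkbh5* and of *Zc3h13* are shown because their motif content differs and because the last pair holds the core of the CTCF motif. Capitals mark matches, on either strand, to CCAAT (the NF-Y box), GGGCGG (Sp1 and KLF factors), CGGAAG (ETS factors) and AGGGGGC (core of the CTCF motif). In *Alkbh5*, the CTCF core overlaps a GGGCGG.
*Mettl3*, chr14:52305075-52305374, minus strand: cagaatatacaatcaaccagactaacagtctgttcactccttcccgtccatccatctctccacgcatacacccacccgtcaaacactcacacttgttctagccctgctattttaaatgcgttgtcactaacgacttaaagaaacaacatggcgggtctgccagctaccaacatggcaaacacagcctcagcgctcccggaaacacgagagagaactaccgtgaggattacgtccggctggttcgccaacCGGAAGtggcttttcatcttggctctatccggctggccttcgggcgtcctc
*Alkbh5*, chr11:60537433-60537732, plus strand: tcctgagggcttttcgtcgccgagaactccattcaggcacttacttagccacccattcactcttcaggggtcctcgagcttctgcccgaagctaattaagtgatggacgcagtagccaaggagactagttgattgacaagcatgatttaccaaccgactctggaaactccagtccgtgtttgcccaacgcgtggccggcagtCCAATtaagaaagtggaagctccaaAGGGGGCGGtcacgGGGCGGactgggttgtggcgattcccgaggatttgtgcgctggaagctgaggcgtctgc
*Zc3h13*, chr14:75284116-75284415, plus strand: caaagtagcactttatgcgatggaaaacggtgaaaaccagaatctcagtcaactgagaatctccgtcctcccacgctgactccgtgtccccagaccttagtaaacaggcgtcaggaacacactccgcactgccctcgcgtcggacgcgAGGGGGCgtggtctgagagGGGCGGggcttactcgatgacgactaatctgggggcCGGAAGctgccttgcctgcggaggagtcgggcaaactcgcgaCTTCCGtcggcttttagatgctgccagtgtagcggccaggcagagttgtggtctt

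GGGCGG was found in 6 of the 8 genes, and 35.7% of all promoters hold it. CGGAAG was found in *Mettl3*, *Wtap*, *Zc3h13* and *Cbll1*, against 16.9% of all promoters, and CCAAT in *Wtap*, *Rbm15* and *Alkbh5*, against 37.4%. The CTCF core was in *Zc3h13* and *Alkbh5* and in 10.6% of all promoters. AAGATGG, the YY1 motif, and CACGTG, the E-box, were found in *Rbm15b* alone among the 8 genes, and in 6.34% and 7.15% of all promoters. TATAAA, the TATA box, and CGCATGCG, the NRF1 motif, were in no promoter of these genes, and in 13.6% and 1.87% of all promoters. The matches are letters in a window and no evidence of binding.

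Pol II was found at the promoters of all 8 writers and of *Alkbh5* in every genotype. The values are reads per peak divided by a size factor for each library, as deposited. At *Mettl3* (chr14:52541954-52542861, from 276 nt upstream to 631 nt downstream of the start), the values were 177 and 202 in WT against 240 and 235 in *Mettl3* KO, while *Trdn-as* KO had 203 and 161. Both *Mettl3* KO libraries lay above the other 4, whose ranges overlapped. At *Mettl14* (chr3:123179048-123180109), they were 223 and 240 in WT against 290 and 258 in *Mettl3* KO, while *Trdn-as* KO had 230 and 202. Here too the *Mettl3* KO libraries were the highest, with a wider gap between them.

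Among the regulatory subunits, *Wtap* had the strongest promoter peak (chr17:13210254-13212144), which lay 912 to 2802 nt downstream of the gene start used in the table. Its Pol II values were 592 and 556 in WT against 731 and 762 in *Mettl3* KO, while *Trdn-as* KO had 612 and 556. *Virma* (chr4:11485400-11486439) had 219 and 213 in WT against 306 and 285 in *Mettl3* KO, while *Trdn-as* KO had 238 and 165. For both genes the *Mettl3* KO libraries were the highest, and the *Trdn-as* KO libraries of *Virma* lay on either side of WT. *Zc3h13* (chr14:75521148-75522199) had 325 and 326 in WT against 415 and 419 in *Mettl3* KO, while *Trdn-as* KO had 406 and 255. *Cbll1* (chr12:31549117-31550392) had 343 and 379 in WT against 457 and 427 in *Mettl3* KO, while *Trdn-as* KO had 386 and 307. The *Trdn-as* KO libraries of both genes lay on either side of WT, those of *Zc3h13* the farthest apart.

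The promoter peak of *Rbm15* (chr3:107239411-107242034) was among the widest, at 2624 nt, with Pol II values of 771 and 730 in WT against 893 and 871 in *Mettl3* KO, while *Trdn-as* KO had 776 and 627. Its paralog *Rbm15b* (chr9:106763379-106765022) had a narrower peak of 1644 nt and lower values, with 323 and 309 in WT against 402 and 411 in *Mettl3* KO, while *Trdn-as* KO had 399 and 320. *Rbm15b* was the gene in which a *Trdn-as* KO library came closest to the *Mettl3* KO libraries. The eraser *Alkbh5* (chr11:60427216-60430036) had 703 and 690 in WT against 856 and 922 in *Mettl3* KO, while *Trdn-as* KO had 824 and 584. In all 9 genes, writers and eraser alike, both *Mettl3* KO libraries were above the other 4, and *Trdn-as* KO replicate 2 was the lower of its pair. Of all peaks tested, 21.1% had both *Mettl3* KO libraries above the other 4, and 31.2% had them above both WT libraries.

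**Figure D1:**
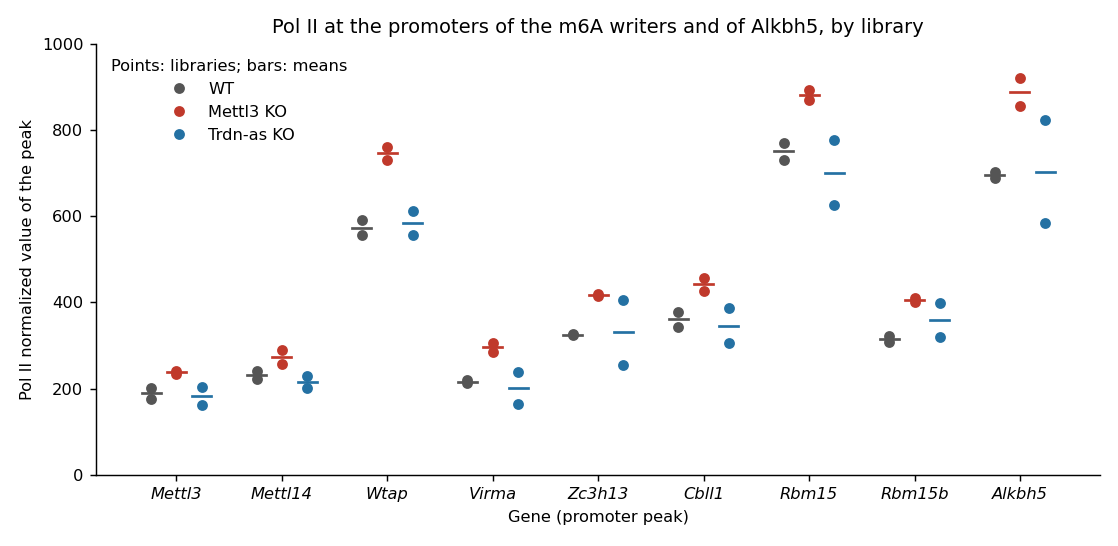
Pol II normalized value (vertical axis, from 0) of the promoter peak of 9 genes in 6 libraries. Points are libraries, bars are means of 2 libraries. The red *Mettl3* KO points lie above the grey WT and the blue *Trdn-as* KO points of the same gene in all 9 genes, and the widest blue pair is that of *Alkbh5* (824 and 584).

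Per kilobase of peak, the order of the genes in WT ran from *Zc3h13*, with a mean Pol II value of 309.4 ± 0.672 (SD, n = 2), over *Wtap* (304 ± 13.5), *Rbm15* (286 ± 11.0), *Cbll1* (283 ± 19.95), *Alkbh5* (247 ± 3.26), *Mettl14* (218 ± 11.3), *Mettl3* (209 ± 19.5) and *Virma* (208 ± 4.08) to *Rbm15b* (192 ± 6.02). The WT libraries of neighbours overlapped between *Zc3h13* and *Wtap*, between *Rbm15* and *Cbll1*, and along *Mettl14*, *Mettl3* and *Virma*. The catalytic pair *Mettl3* and *Mettl14* thus stood in the lower part of the order, with densities that their replicates did not separate.

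IgG gave the background at the same promoter peaks, with 1 library per genotype and between 7 and 54 reads per peak. Scaled by uniquely mapped reads, mean Pol II in WT was 11.9 times the IgG at *Mettl3*, the lowest of the 9 genes, and 30.6 times at *Wtap*, the highest. The ratio was 10.2 to 21.2 in *Mettl3* KO and 5.04 to 18.3 in *Trdn-as* KO, with *Wtap* at the upper end in each genotype. Without replicates of IgG the ratios of the genotypes were not compared.

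Whether the loss of *Mettl3* moved Pol II at the genes of its own pathway was tested against WT. All 9 promoter peaks were higher in *Mettl3* KO by 0.23 (*Rbm15*) to 0.45 (*Virma*) on the log2(value + 1) scale, with a median of 0.35, and in all 9 both *Mettl3* KO libraries lay above both WT libraries. None passed the test. The smallest adjusted p from limma was 0.191, for *Wtap* (0.38 ± 0.15, SE), followed by *Alkbh5* (0.35 ± 0.15, adjusted p = 0.228) and *Virma* (0.45 ± 0.20, adjusted p = 0.254). *Mettl3* itself was 0.33 ± 0.20 higher, with an adjusted p of 0.436 from limma. Of the 23 peaks, 13 passed the filter on low values, 0 of these were called at an adjusted p below 0.05, and 4 had an unadjusted p below 0.05, beside 15.5% of all peaks. Over all 52655 peaks tested, 1.19% were called.

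The shift was shared by promoters in general. Both *Mettl3* KO libraries lay above both WT libraries at 83.4% of 7159 promoter peaks of all genes (the 9 included) with a mean Pol II value of 150 to 850, a range set after the values of the 9 genes were seen. The median log2 fold change of these promoters was 0.28, with quartiles of 0.18 and 0.38. *Mettl14*, *Rbm15* and *Cbll1* differed from that median by -0.04, -0.05 and 0.01, and *Virma* was the farthest from it, at 0.17 above. The median of the 9 genes was 0.07 above that of the promoters. The uniquely mapped reads moved the median of all peaks from 0.08 to -0.06, and the 9 fold changes then were 0.09 to 0.31, beside a median of 0.14 for the promoters.

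**Figure D2:**
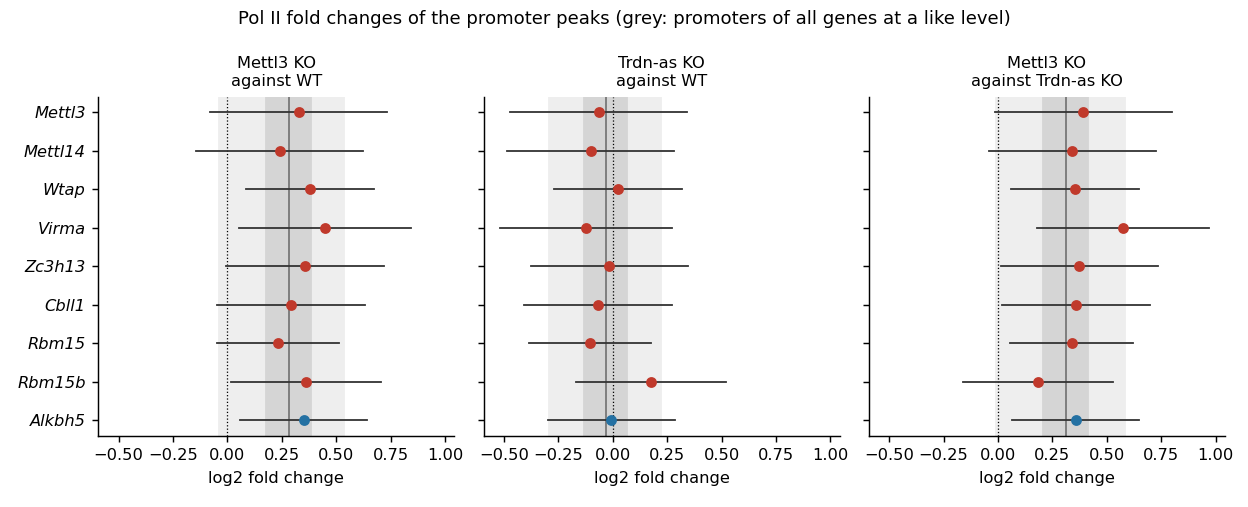
Pol II log2 fold changes (horizontal axis) of the promoter peaks of 9 genes in 3 comparisons, with 95% confidence intervals from limma, writers in red and *Alkbh5* in blue. The light grey band holds the middle 90% and the dark grey band the middle 50% of 7159 promoters, the grey line is their median, and the dotted line is 0. In both comparisons of *Mettl3* KO, the points gather around the shifted grey line, at 0.28 and 0.31, and not around 0.

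The calls depended on which libraries gave the estimate of the spread. With *Trdn-as* KO left out of the fit, 6 of the 9 promoter peaks were called higher, those of *Wtap*, *Virma*, *Zc3h13*, *Rbm15*, *Rbm15b* and *Alkbh5*, with adjusted p from limma of 0.00887 (*Alkbh5*) to 0.0253 (*Rbm15*), while 8.62% of all peaks and 37.4% of the 7159 promoters were called higher. The fit with 3 genotypes but without *Trdn-as* KO replicate 2, added after the data were seen, called the same 6, beside 8.28% of all peaks and 37.7% of the promoters. *Mettl3*, *Mettl14* and *Cbll1* were not called in either fit. With either replicate of *Mettl3* KO or of WT left out, 0 of the 9 were called, in fits that called at most 0.0216% of all peaks higher.

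Markers of other cell types moved in the same comparison. Of 5 fibroblast genes, 4 were called higher in *Mettl3* KO (*Col1a1*, *Col1a2*, *Pdgfra* and *Tcf21*, with log2 fold changes of 0.74 to 1.19), and the summed Pol II value of the 5 ran at 795 and 827 in WT against 1599 and 1556 in *Mettl3* KO, while *Trdn-as* KO had 1185 and 851. Of 4 smooth muscle and pericyte genes, 1 was called higher, *Pdgfrb* (0.78). Among 7 cardiomyocyte, 4 endothelial and 4 leukocyte genes with a tested peak, 0 were called, and the summed value of the cardiomyocyte genes was 28254 and 30105 in WT, against 28577 and 28942 in *Mettl3* KO. *Pecam1* of the endothelial and *Csf1r* of the leukocyte list had no promoter peak, and no other gene of these lists was at 0 in a Pol II library. These calls were lost when values were scaled by uniquely mapped reads, without the filter, without the variance trend and with either library of *Mettl3* KO or of WT left out, where 0 markers of any list were called and all 5 fibroblast genes were still above 0. In both fits that called 6 of the 9 promoter peaks, all 5 fibroblast genes and *Pdgfrb* were called higher and 3 of 7 cardiomyocyte genes, *Actc1*, *Ryr2* and *Pln*, lower. Size factors computed within the Pol II libraries called the same 5 fibroblast genes and *Pdgfrb* higher and the same 3 cardiomyocyte genes lower, but 0 of the 9 promoter peaks. The part of the fibroblast markers in the values of the writers and erasers was not tested.

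*Trdn-as* KO against WT asked whether Pol II at the same genes changed when *Mettl3* was intact. The libraries of both genotypes overlapped at all 9 promoter peaks. The log2 fold changes ran from -0.12 (*Virma*) to 0.18 (*Rbm15b*) with a median of -0.06, beside -0.03 for the promoters of all genes at that level. The 95% interval of *Mettl3* was -0.47 to 0.34, and that of *Alkbh5* -0.30 to 0.29, so differences of either sign within these intervals remain compatible with the values. The smallest adjusted p from limma was 0.890, for *Rbm15b*, and 0 of the 9 had an unadjusted p below 0.05. Over all 52655 peaks, 0.304% were called, and both *Trdn-as* KO libraries lay above both WT libraries at 12.9% and below them at 19.1%. Of the cell type markers, 1 of 7 cardiomyocyte genes, *Myh6*, was called lower. This call was lost with uniquely mapped reads, without the filter, without the variance trend, with only the genotypes compared and with the replicate block. The median of the 7 was -0.06, but -0.26 without *Trdn-as* KO replicate 1 and 0.09 without replicate 2. All 5 fibroblast genes were above 0, with a median of 0.33, and 0 were called, while with uniquely mapped reads 0 of 5 were above 0. For the 9 promoter peaks, the direction turned with the library. Without *Trdn-as* KO replicate 2, 8 of 9 were above 0 with a median of 0.10, beside 0.14 for the promoters. Without replicate 1, 1 of 9 was, with a median of -0.23, beside -0.19. Scaled by uniquely mapped reads, 0 of 9 were above 0 with a median of -0.66, beside a median of -0.63 for the promoters.

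*Mettl3* KO was also compared with *Trdn-as* KO, with the same *Mettl3* KO libraries as above. All 9 promoter peaks were higher in both *Mettl3* KO libraries than in both *Trdn-as* KO libraries, by 0.19 (*Rbm15b*) to 0.57 (*Virma*), with a median of 0.36. The median was 0.82 when scaled by uniquely mapped reads, beside 0.77 for the promoters of all genes at that level, and 0.23 with size factors computed within the Pol II libraries, beside 0.18. The smallest adjusted p from limma was 0.117, for *Virma* (0.57 ± 0.20, SE), and 0 of 13 peaks tested were called, of which 7 had an unadjusted p below 0.05, beside 17.9% of all peaks. The background was 1.5% of peaks called, 29.9% of peaks with both *Mettl3* KO libraries on top, and a median of 0.31 over the promoters, 69.5% of which had both on top. *Rbm15b* differed from that median by -0.13 and *Virma* by 0.26. Of the cell type markers, 3 of 5 fibroblast genes, 1 of 7 cardiomyocyte genes (*Myh6*) and 1 of 4 smooth muscle and pericyte genes were called higher in *Mettl3* KO, and their part was not tested. With uniquely mapped reads, without the filter, without the variance trend and with only the genotypes compared, 0 markers were called, and all 5 fibroblast genes were above 0. With size factors within the Pol II libraries, 3 fibroblast genes were called higher, and 2 cardiomyocyte genes higher and 2 lower. Without *Trdn-as* KO replicate 1, all 5 fibroblast genes and 5 cardiomyocyte genes were called higher, and without replicate 2, 0 fibroblast genes were, with 1 cardiomyocyte gene higher and 2 lower. Without *Trdn-as* KO replicate 2 the median of the 9 genes was 0.19, beside 0.14 for the promoters, and 0 were called. Without replicate 1, all 9 were called higher, at a median of 0.52, beside 18.7% of all peaks and 69.2% of the promoters.

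At the same promoter peaks, CTCF did not differ from WT in 1 direction for all genes. *Mettl3* had CTCF values of 52 and 44 in WT against 45 and 49 in *Mettl3* KO, while *Trdn-as* KO had 43 and 39. *Zc3h13*, with a CTCF core in its promoter, had 56 and 44 in WT against 39 and 37 in *Mettl3* KO, while *Trdn-as* KO had 36 and 45. *Alkbh5*, which also has the core, had 147 and 127 in WT against 115 and 124 in *Mettl3* KO, while *Trdn-as* KO had 125 and 124. The WT libraries of *Zc3h13*, *Alkbh5* and *Mettl14* lay above the *Mettl3* KO libraries, as they did at 27.7% of all peaks tested for CTCF and at 31.1% of the 7159 promoters. *Zc3h13* and *Alkbh5* had log2 fold changes of -0.38 ± 0.16 and -0.19 ± 0.10 (SE) and adjusted p from limma of 0.254 and 0.345. The other 6 genes had CTCF values between 44 and 150 at their promoters. In WT, CTCF scaled by uniquely mapped reads was 4.02 (*Virma*) to 7.84 (*Rbm15b*) times the IgG. The ratio was 2.26 to 4.80 in *Mettl3* KO and 2.07 to 6.20 in *Trdn-as* KO, and the genotypes were not compared, with 1 IgG library each.

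Of the 23 peaks, 15 were tested for CTCF, and 0 were called in either comparison with WT. The median log2 fold change over the 9 promoter peaks was -0.03 in *Mettl3* KO, and 0.02 with size factors computed within the CTCF libraries. With the deposited scaling, the median was -0.05 for the 7159 promoters and -0.06 for all peaks. The median of the 9 turned to 0.01 without WT replicate 1, and was -0.16 without WT replicate 2, -0.14 without *Mettl3* KO replicate 1 and -0.06 without *Mettl3* KO replicate 2. An unadjusted p below 0.05 was found at 1 of 15 peaks, beside 15.7% of all 60649 peaks, of which 0.185% were called. In *Trdn-as* KO, 1 of the 9 promoter peaks was above 0 and their median was -0.13, beside -0.04 for the 7159 promoters and 0.04 for all peaks. This median was -0.07 without *Trdn-as* KO replicate 1, with 3 above 0, -0.08 without WT replicate 1, with 2 above 0, -0.24 without WT replicate 2 and -0.21 when scaled by uniquely mapped reads. There, 1 of 15 peaks had an unadjusted p below 0.05, beside 10.2% of all peaks, of which 0.587% were called. The difference with the smallest adjusted p there was that of *Mettl14*, with CTCF values of 62 and 60 in WT against 57 and 54 in *Mettl3* KO, while *Trdn-as* KO had 47 and 52. Against WT, *Trdn-as* KO differed by -0.30 ± 0.13 (SE) on the log2 scale, with an adjusted p of 0.431 from limma.

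Cell type markers were also compared in CTCF, and 1 was called, in *Mettl3* KO. The summed CTCF value of 4 endothelial genes was 139 and 143 in WT against 101 and 102 in *Mettl3* KO, while *Trdn-as* KO had 116 and 112, and that of 5 fibroblast genes was 379 and 358 against 434 and 428, with 416 and 428 in *Trdn-as* KO. The median log2 fold change of the endothelial genes was -0.56 in *Mettl3* KO, against -0.32 in the *Trdn-as* KO libraries, with 0 of 4 above 0 in both comparisons, and that of the fibroblast genes was 0.29 and 0.21 with 5 of 5 above 0, but 0 genes of these lists were called. The cardiomyocyte genes summed to 1895 and 1942 in WT against 2048 and 2057 in *Mettl3* KO, while *Trdn-as* KO had 2033 and 1954. Of this sum, *Myh6* alone gave 299 and 289 in WT against 455 and 480 in *Mettl3* KO, while *Trdn-as* KO had 340 and 322. The median log2 fold change of the 7 genes was 0.02 in *Mettl3* KO, with 4 above 0, and 0.08 in *Trdn-as* KO, with 6 above 0. Of the smooth muscle and pericyte genes, 2 were tested and both were above 0 in both comparisons, and the 4 leukocyte genes summed to 17 to 24 in every library. The marker called was *Myh6* of the cardiomyocyte list, higher in *Mettl3* KO (0.67, adjusted p = 6.85e-05 from limma), and the call was lost without the filter, without the variance trend, with only the genotypes compared and with any 1 library left out. At the *Myh6* peak, IgG was 1003 in WT against 1354 in *Mettl3* KO, while *Trdn-as* KO had 1057, with 1 library each. Whether the Cre transgene under the alphaMHC promoter in *Mettl3* KO hearts added reads there was not tested for CTCF, Pol II or IgG. The part of the cell type markers in the CTCF values of the writers and erasers was not tested.

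Apart from the 9 promoter peaks, 5 peaks had CTCF values of 23 to 92 with little Pol II. Inside *Mettl3*, a peak 8839 to 9784 nt from the start of the 10288-nt gene (chr14:52532801-52533746) had CTCF values of 76 and 66 in WT against 67 and 59 in *Mettl3* KO, while *Trdn-as* KO had 66 and 81 and Pol II was between 13 and 24. Inside *Mettl14*, a peak 13625 to 14454 nt from the start (chr3:123165303-123166132) had CTCF between 78 and 92 and Pol II between 10 and 22. CTCF in WT was 11.8 and 13.2 times the IgG at these peaks, on 12 IgG reads each, which is more than at any of the 9 promoters. Smaller peaks of this kind, chosen after their values were seen, lay upstream of *Wtap* (CTCF 38 to 43), near the 3′ end of *Virma* (29 to 39) and inside *Zc3h13* (23 to 30). None of the 5 was called for CTCF in *Mettl3* KO or *Trdn-as* KO against WT, and the smallest adjusted p from limma was 0.378, at the peak in *Virma*. Whether these peaks lie in exons or introns was not determined, since the annotation used here is of another build.

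**Figure D3:**
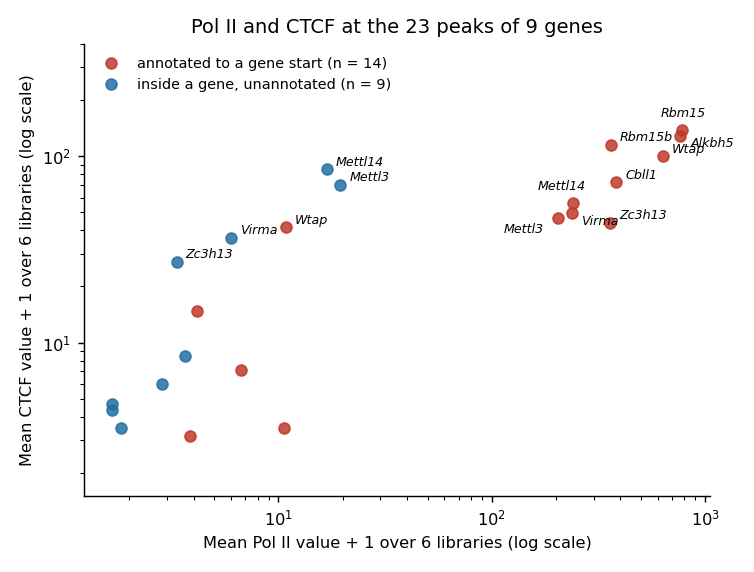
Mean CTCF value against mean Pol II value, each plus 1 and on a log scale, of the 23 peaks of 9 genes over 6 libraries per target. The 9 promoter peaks stand on the right with mean Pol II of 203 or more, and 5 peaks with mean CTCF of 26.2 to 84.2 and mean Pol II of 2.33 to 18.5 stand on the left, of which 4 lie inside *Mettl14*, *Mettl3*, *Virma* and *Zc3h13* and 1 upstream of *Wtap*.

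Of the remaining 9 peaks, 8 had Pol II values of 0 to 9 and CTCF values of 1 to 17. The ninth, at -1179 to -889 nt from the *Rbm15b* start (chr9:106765516-106765806), is named because of its values. Its Pol II values were 4 and 9 in WT against 1 and 2 in *Mettl3* KO, while *Trdn-as* KO had 30 and 12, and the *Mettl3* KO values rested on an estimated 1 read in each library. The log2 difference between *Mettl3* KO and *Trdn-as* KO was -3.03 ± 0.91 (SE), with an adjusted p of 0.0662 from limma, on values of at most 30. With a pseudocount of 5 the difference was -1.91 and the peak was called lower (adjusted p = 0.0202 from limma), beside 0.532% of all peaks. With size factors computed within the Pol II libraries it was -3.13 and also called (adjusted p = 0.0475 from limma), beside 1.12% called lower.

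*Fto*, the other eraser, had no peak under its own symbol. In GRCm38 its start lies 76 nt from that of *Rpgrip1l*, a gene of the opposite strand, and the RefSeq promoters of both share 198 bases. The promoter peak of *Rpgrip1l* (chr8:92039407-92040594 in GRCm39) therefore stands for both starts. It had Pol II values of 128 and 108 in WT against 172 and 160 in *Mettl3* KO, while *Trdn-as* KO had 116 and 98, so both *Mettl3* KO libraries were on top here too. Its log2 fold change was 0.49 ± 0.23 (SE) in *Mettl3* KO, with an adjusted p of 0.288 from limma. Its CTCF values were 54 and 57 in WT against 61 and 58 in *Mettl3* KO, while *Trdn-as* KO had 58 and 59. The *Fto* promoter is shown because this eraser has no peak of its own, and none of the 8 motifs was found in it, so it has no capitals.
*Fto*, GRCm38.p6, chr8:91313275-91313574, plus strand: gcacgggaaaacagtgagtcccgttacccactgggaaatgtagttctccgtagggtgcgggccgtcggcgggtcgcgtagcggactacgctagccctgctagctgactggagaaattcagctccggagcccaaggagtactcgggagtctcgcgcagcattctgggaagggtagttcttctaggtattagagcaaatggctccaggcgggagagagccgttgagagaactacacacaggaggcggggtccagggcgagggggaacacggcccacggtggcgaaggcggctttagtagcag

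The table gives no GRCm39 interval for *Fto*. Laid out by its GRCm38 length of 355067 nt from the *Rpgrip1l* start, the stretch held 27 unannotated peaks and 7 annotated to other genes. The distance from *Rpgrip1l* to *Irx3* was 485220 nt in GRCm38 and 485263 nt in the table, so the stretch has nearly the same length in both builds. Of the 27 peaks, 11 were tested for Pol II, 8 of these were above 0 in *Mettl3* KO against WT, and 0 were called in any comparison. The strongest Pol II peak of the 27 lay 19570 to 20096 nt into the stretch and had a mean of 38.2. A peak 50938 to 51623 nt into it, chosen after its values were seen, had 45 and 52 in WT against 25 and 29 in *Mettl3* KO, while *Trdn-as* KO had 37 and 24, so both *Mettl3* KO libraries were below both WT libraries, as at 19.5% of all peaks tested. Its log2 fold change was -0.82 ± 0.36 (SE) in *Mettl3* KO, with an adjusted p of 0.254 from limma. CTCF was highest among the 27 at 65310 to 66056 nt, with a mean of 64.0. These peaks were assigned by distance alone.

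**Figure D4:**
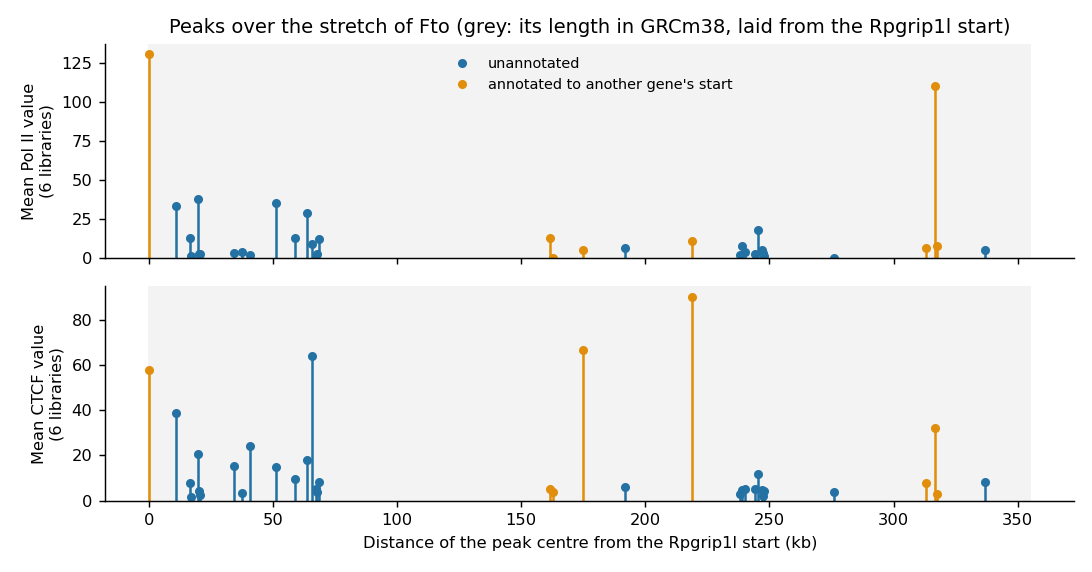
Mean Pol II (upper panel) and CTCF (lower panel) values over 6 libraries of the peaks along *Fto*, by the distance of the peak centre from the *Rpgrip1l* start in kilobases. Blue are unannotated peaks, orange are peaks annotated to the start of another gene, and the grey area is the GRCm38 length of *Fto*. Pol II is highest at the shared start (130) and CTCF of the unannotated peaks at 64.0, in the first part of the gene.

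The genes that read m6A or supply the methyl group shared the direction of promoters in general in *Mettl3* KO, and none passed the test. Over the promoter peaks of 12349 genes, 83.1% were above 0 in *Mettl3* KO against WT and 1.76% were called. Of 12 reader genes, 11 had a promoter peak and 10 were tested. All 10 were above 0 in *Mettl3* KO against WT, with a median of 0.31, beside 0.28 for the 7159 promoters, and 0 were called. *Ythdc1*, the nuclear reader, had Pol II values of 359 and 343 in WT against 439 and 475 in *Mettl3* KO, while *Trdn-as* KO had 336 and 301. *Ythdf2*, the cytoplasmic reader that marks transcripts for decay, had 259 and 312 in WT against 305 and 322 in *Mettl3* KO, while *Trdn-as* KO had 280 and 242, so that WT and *Mettl3* KO overlapped. Their log2 fold changes were 0.38 ± 0.17 and 0.14 ± 0.18 (SE), with adjusted p from limma of 0.260 and 0.750.

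Of 9 other methyltransferase and methyl donor genes, 8 had a tested peak. All 8 were above 0 in *Mettl3* KO against WT, with a median of 0.22, below the 0.28 of the 7159 promoters, and 0 were called. *Mat2a*, which makes the methyl donor S-adenosylmethionine, had 1092 and 942 in WT against 1135 and 1324 in *Mettl3* KO, while *Trdn-as* KO had 1028 and 920, and its log2 fold change was 0.27 ± 0.13 (SE, adjusted p = 0.298 from limma). In *Trdn-as* KO against WT, 2 of these 8 genes and 5 of the 10 readers were above 0, with 0 called in both lists, beside 43.0% of the 12349 promoter peaks above 0. Against *Trdn-as* KO, *Mettl3* KO had medians of 0.32 and 0.28, beside 0.31 for the 7159 promoters, again with 0 called. For CTCF, 0 genes of either list were called against WT in *Mettl3* KO or *Trdn-as* KO.

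**Figure D5:**
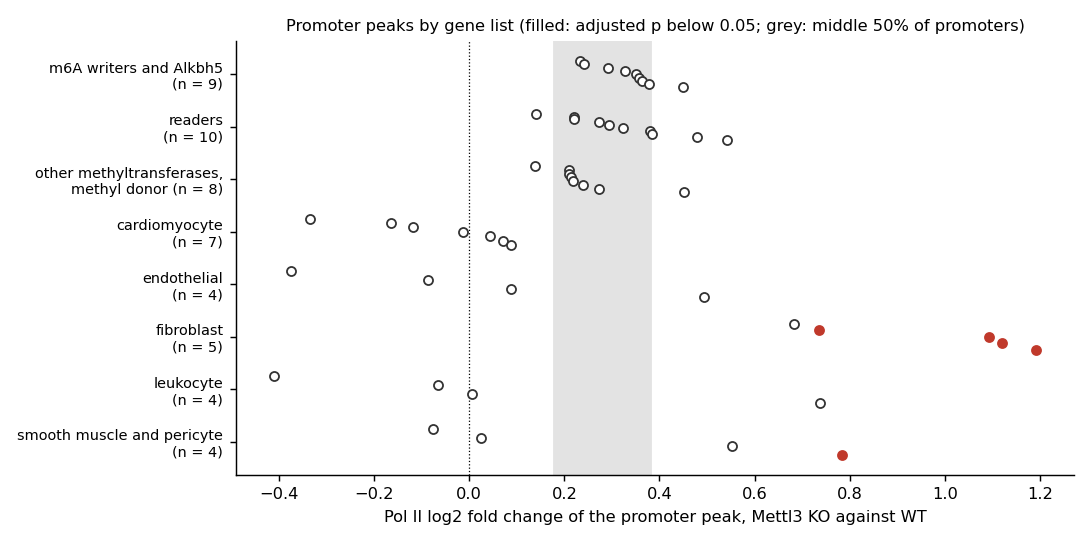
Pol II log2 fold change of the promoter peak in *Mettl3* KO against WT (horizontal axis), 1 point per gene, by gene list. Filled points have an adjusted p below 0.05, open points do not, and the grey band is the middle 50% of 7159 promoters (0.18 to 0.38). Writers, *Alkbh5*, readers and donors lie in or near the band, while 4 of 5 fibroblast genes and 1 smooth muscle and pericyte gene are filled and lie to its right.

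Among the 36 pairs of the 9 promoter peaks, Pearson's r of log2(value + 1) ran from 0.65 to 0.99 with a median of 0.90. The promoter peaks most like that of *Mettl3* among 12349 genes were those of *Tmem192* (r = 0.999), *Mef2a* (r = 0.999) and Gm42957 (r = 0.998). These are descriptions over 6 libraries that share depth and normalization, and 51 genes had an r above 0.99.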

How the data were processed

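ChIP-seq libraries for Pol II (6), CTCF (6) and IgG (3) were analysed, and 3 input libraries were not analysed here. Per the labels and the study's methods, the authors trimmed reads with Trimmomatic 0.39, aligned them to mm39 (GRCm39) with STAR 2.7.11b, removed duplicates with Picard 3.1.1, counted reads per union peak with featureCounts and normalized them with DESeq2 1.36.0. What they deposited is this signal as whole numbers, and peaks near a gene start carry the gene's name. No count test was run on them.

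A peak was tested when 2 or more of the 6 libraries of its target reached a value of 10. The test was limma 3.58.1 (R 4.3.3; eBayes with a variance trend, two-sided) on log2(value + 1), with all 3 genotypes in the model and Benjamini-Hochberg adjustment over all peaks tested, at a threshold of 0.05. Fold changes on this scale understate those of low values. It was run on simulated data first. Every peak of the 10 genes was kept. The peak described for each gene was the promoter peak with the highest mean Pol II value, and other peaks were named at a mean of 50 or more or when called. The CTCF peaks of *Wtap*, *Virma* and *Zc3h13*, the peak upstream of *Rbm15b* and the peaks of the *Fto* stretch were chosen after their values were seen. *Ythdc1*, *Ythdf2*, *Mat2a* and the 3 peaks most like *Mettl3* were named by rule. The members and lists were chosen with earlier results of these data known. Reads per peak were estimated from the spacing of the deposited values, and for CTCF these are rough. At the promoter peaks they were 79 to 773 for Pol II, with a counting error of 3.6% to 11.2%. Ratios to IgG use the uniquely mapped reads that the study lists. The lowest r among the 6 libraries of a target, across genotypes, was 0.977 for Pol II and 0.984 for CTCF, and none were identical. Promoters came from RefSeq (GRCm38.p6), with motifs searched on both strands, and no coordinates were moved between builds. Alternatives were other scalings, filters, pseudocounts, sets of libraries and a replicate block. Tables and plots were made with Python 3.11.15.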

Additional observations from a re-analysis of the deposited data

How the results depend on the processing

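Under alternatives, 548 log2 fold changes were set beside the report, of single promoter peaks or of the sum over all peaks of a gene. Of these, 488 kept their direction and side of the threshold, 21 were called that were not called in the report and 39 changed sign. Those of Pol II in both *Mettl3* KO comparisons were above 0 under every alternative run. The causes of the changes were not tested.

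The number of all peaks called for Pol II in *Mettl3* KO against WT, 629 with 375 higher, was 30 with uniquely mapped reads as library size (9 higher), 2258 with size factors within the target (1300 higher), 0 without the filter, 987 with a pseudocount of 5, 4891 with only the genotypes compared, 2 without the variance trend and 0 to 4975 with 1 library left out, 4975 being the value without *Trdn-as* KO replicate 2. Of the 9 promoter peaks, 6 were called with only the genotypes compared, and 0 to 6 with 1 library left out. For *Trdn-as* KO against WT, 160 (42 higher) became 123 (10 higher) with uniquely mapped reads, 280, 2, 43 and 4 with size factors within the target, without the filter, with only the genotypes compared and without the trend, and 17 to 2185 with 1 library left out. For *Mettl3* KO against *Trdn-as* KO, 790 (603 higher) became 219 (204 higher), 1543 (981 higher), 1, 1282, 66 and 12 with uniquely mapped reads, size factors within the target, no filter, a pseudocount of 5, only the genotypes compared and no trend, and 11 to 9789 with 1 library left out. There, 1 peak of the 10 genes was called with size factors within the target and 1 with a pseudocount of 5, and 0 to 9 with 1 library left out.

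For CTCF in *Mettl3* KO, 112 (60 higher) became 735 (492 higher) with size factors within the target, 0 without the filter, 0 with only the genotypes compared, 0 without the trend and 2 with the replicate block. With uniquely mapped reads it was 151 (100 higher). With either library of *Mettl3* KO or of WT left out, the calls were lost, and the median log2 fold change of all peaks ran from -0.11 to -0.01. No *Trdn-as* KO library was left out here. For CTCF in *Trdn-as* KO, 356 (211 higher) became 285 (124 higher) with uniquely mapped reads, 58 without the filter, 40 with only the genotypes compared, 156 without the trend, 1 to 5 with 1 library left out and 236 with the replicate block. Same-numbered libraries did not deviate together (r = -0.0096 to -2e-04 for Pol II and -0.2377 to 0.0059 for CTCF), so the numbers do not pair them, and a block with crossed numbers, added after the data were seen, called 0 for CTCF in *Trdn-as* KO. It was run with only the genotypes compared, which without a block gave the 40 above. With the replicate block Pol II had 756, 201 and 950 calls in the order above, and 0 of the 23 peaks was called for either target.

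Some log2 fold changes changed sign, and none of these was called. In *Trdn-as* KO, Pol II at *Wtap* was -0.5765 and at *Rbm15b* -0.4223 with uniquely mapped reads, and at *Zc3h13* 0.0362 and *Alkbh5* 0.0471 with size factors within the target. With 1 library left out it ran from -0.2307 to 0.1019 at *Mettl3*, -0.0452 to 0.093 at *Wtap*, -0.3864 to 0.1395 at *Virma*, -0.3509 to 0.3179 at *Zc3h13*, -0.2585 to 0.0487 at *Rbm15*, -0.2313 to 0.0981 at *Cbll1* and -0.2537 to 0.2423 at *Alkbh5*. For CTCF in *Mettl3* KO, size factors within the target gave 0.0314 at *Mettl3*, 0.0286 at *Rbm15* and 0.0235 at *Cbll1*, and the sum over all peaks of a gene gave 0.0053 at *Mettl14*, -0.0456 at *Virma*, -0.0071 at *Rbm15b* and 0.0321 at *Cbll1*. With 1 library left out it ran from -0.1442 to 0.0919 at *Mettl3*, -0.1971 to 0.0144 at *Wtap*, -0.0843 to 0.0248 at *Rbm15*, -0.2371 to 0.2636 at *Rbm15b* and -0.155 to 0.086 at *Cbll1*. For CTCF in *Trdn-as* KO, the sum over all peaks gave 0.072 at *Wtap* and 0.009 at *Cbll1*, and leaving out 1 library gave -0.1162 to 0.0953 at *Wtap*, -0.1074 to 0.0446 at *Virma*, -0.1719 to 0.3288 at *Rbm15b* and -0.0701 to 0.0101 at *Cbll1*. A library left alone in its genotype was assumed to vary like the others. IgG had 7 to 54 reads per promoter peak and 1 library per genotype, which limits the ratios.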

Other observations

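A peak inside *Cbll1* (chr12:31540494-31540636 in GRCm39) was annotated to the start of a long non-coding RNA without a symbol and was therefore not counted with *Cbll1*. Its Pol II values were 0 in 5 libraries and 1 in *Trdn-as* KO replicate 1, and its CTCF values were 6 and 2 in WT, 3 and 2 in *Mettl3* KO, with 3 and 3 in *Trdn-as* KO.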
